A study of Mus musculus with 7 samples.

Results

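Promoters of developmental transcription factors were examined in maps of accessible chromatin from mouse liver. The list held 48 genes of the Pax, Lhx, Nkx, Tbx, Irx, Sox, Gata, bHLH and Otx-Gsc families together with Six2, Six3 and Six6, which direct the formation of organs other than the adult liver. Membership rests on gene names and no measured value enters its rule, but the list was chosen with earlier results of these data known. Of the 48, 47 were found by symbol among the 22365 genes with protein-coding transcripts in GENCODE release M1 on mm9, and Sox1 was not. The map of each nuclease was scored for hotspots, stretches where cleavage tags cluster above background, over the transcription start sites (TSSs) of these genes and within 1 kb of them. Whether the 47 genes were silent in these livers was not measured, since no RNA data were used here.

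The livers came from 8-week-old male C57BL/6 mice. Benzonase and Cyanase, endonucleases that work in crude lysates, were applied to pulverized frozen liver at 0.25, 1 and 4 U, with 1 sample at each concentration. DNase I was applied at 60 U/ml to nuclei from fresh liver, with 1 sample listed and 2 libraries pooled in the map. The tags of each nuclease were pooled, so each nuclease gave 1 map without replicate spread, and nuclease, tissue state and preparation cannot be told apart. The maps held 60910 Benzonase, 57675 Cyanase and 72286 DNase I hotspots, with median widths of 652, 641 and 649 bp. They give positions only, so the tag depth behind a hotspot is unknown and a missing hotspot does not show that chromatin was closed.

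Pax, T-box, SOX and homeodomain proteins bind DNA in embryonic precursors and set the fate of tissues such as eye, kidney, heart, muscle and nervous system. Their promoters usually lie in long CpG islands, stretches rich in the dinucleotide CpG that mostly lack DNA methylation. In differentiated cells where such genes are off, these islands are commonly held by Polycomb complexes, which mark histones without methylating the DNA. Histone marks and DNA methylation were not used here.

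The 250 bases before the most upstream TSS are printed for 6 genes, from the mm9 genome and 5′ to 3′ on the strand of the gene, with each CpG in capitals. They are examples from the classes described below, which count hotspots over any TSS of a gene. Irx3 (chr8:94325554-94325803, minus strand) had the widest Benzonase hotspot, and Olig2 (chr16:91225545-91225794, plus strand) had the longest island among genes without any hotspot near the TSS. Sox11 (chr12:28027575-28027824, minus strand) had a TSS hotspot of Cyanase only, and Gata3 (chr2:9811662-9811911, minus strand) of DNase I only. Pax5 (chr4:44724319-44724568, minus strand) and Pax8 (chr2:24331120-24331369, minus strand) had no island at a TSS. At Gata3 and Pax8 the TSS hotspot lay over an internal TSS, outside the printed stretch. None of the 6 stretches overlapped an annotated exon.
Irx3: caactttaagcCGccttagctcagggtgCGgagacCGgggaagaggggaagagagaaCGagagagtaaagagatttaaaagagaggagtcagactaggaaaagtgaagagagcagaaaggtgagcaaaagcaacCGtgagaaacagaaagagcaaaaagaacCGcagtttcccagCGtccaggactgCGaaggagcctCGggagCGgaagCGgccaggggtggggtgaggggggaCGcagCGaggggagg
Olig2: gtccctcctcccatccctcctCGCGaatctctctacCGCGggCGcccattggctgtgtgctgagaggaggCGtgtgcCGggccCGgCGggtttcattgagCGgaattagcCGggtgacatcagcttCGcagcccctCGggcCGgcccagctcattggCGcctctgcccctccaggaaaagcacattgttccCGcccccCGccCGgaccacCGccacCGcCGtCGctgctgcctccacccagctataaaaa
Sox11: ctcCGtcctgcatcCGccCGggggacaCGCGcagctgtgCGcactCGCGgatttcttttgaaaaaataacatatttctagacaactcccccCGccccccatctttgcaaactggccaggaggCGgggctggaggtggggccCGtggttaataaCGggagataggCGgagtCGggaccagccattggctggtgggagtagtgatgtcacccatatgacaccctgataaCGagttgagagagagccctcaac
Gata3: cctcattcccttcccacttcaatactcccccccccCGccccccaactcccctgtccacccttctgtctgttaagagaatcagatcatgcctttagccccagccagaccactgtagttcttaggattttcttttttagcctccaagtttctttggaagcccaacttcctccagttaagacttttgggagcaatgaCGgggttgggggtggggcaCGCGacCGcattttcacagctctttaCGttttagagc
Pax5: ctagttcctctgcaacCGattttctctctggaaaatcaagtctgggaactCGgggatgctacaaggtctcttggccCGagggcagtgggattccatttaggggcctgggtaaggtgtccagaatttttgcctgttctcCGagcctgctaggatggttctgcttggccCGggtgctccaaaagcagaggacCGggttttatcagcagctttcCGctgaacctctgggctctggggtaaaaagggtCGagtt
Pax8: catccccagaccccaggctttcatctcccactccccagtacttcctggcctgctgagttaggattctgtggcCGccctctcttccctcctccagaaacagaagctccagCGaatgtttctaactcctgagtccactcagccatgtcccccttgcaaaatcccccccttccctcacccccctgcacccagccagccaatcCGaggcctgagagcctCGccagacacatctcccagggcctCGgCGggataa
The number of CpG was 22 at Olig2, 15 at Sox11, 13 at Irx3, 8 at Pax5, 6 at Gata3 and 6 at Pax8. These 6 were chosen as examples and were not used to relate CpG to hotspots. Over all 47 genes the median was 15 CpG in these 250 bases, against 9 over all protein-coding genes.

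Short words were counted in the same 250 bases on both strands. GGGCGG, the core of the site bound by SP1, was present at 31 of the 47 genes (66.0%) and at 40.1% of all genes. CCAAT was present at 21 of them (44.7%), against 35.0% of all genes. TATAAA was present at 5 (10.6%), against 12.3% of all genes. Among the printed stretches, Olig2 held 2 copies of GGGCGG, 2 of CCAAT and 1 of TATAAA, whereas Irx3 and Pax5 held none of these words. Such matches only describe the letters.

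Benzonase marked more of these promoters than DNase I did. A Benzonase hotspot lay over a TSS of 20 of the 47 genes (42.6%, 95% Wilson interval 29.5 to 56.7%), against 57.4% of all protein-coding genes. A Cyanase hotspot did so at 16 genes (34.0%, 22.2 to 48.3%), against 55.7% of all genes. A DNase I hotspot did so at 7 genes (14.9%, 7.41 to 27.7%), against 47.4% of all genes. All 3 shares were below those of all genes, which lay outside each interval, and the distance was greatest for DNase I. For Benzonase the margin was narrow, with an upper bound of 56.7% against 57.4%, and Sox1 was not counted. The DNase I count was 3 genes with only the most upstream TSS of each gene, and 4 without hotspots under the lower width quartile. The intervals cover counting error only, and no test was made, because the genes are not replicates of a condition.

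Hotspots beside the TSS raised the counts without changing their order. Within 1 kb of a TSS, Benzonase hotspots were found at 27 genes (57.4%), against 61.1% of all genes. Cyanase hotspots were found there at 21 (44.7%), against 59.4%. DNase I hotspots were found within 1 kb at 11 genes (23.4%), against 51.8%, and at 6 around the most upstream TSS only. For Benzonase the share of the listed genes was thus close to that of all genes once flanking hotspots were counted, and for DNase I it was not.

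**Figure D1:**
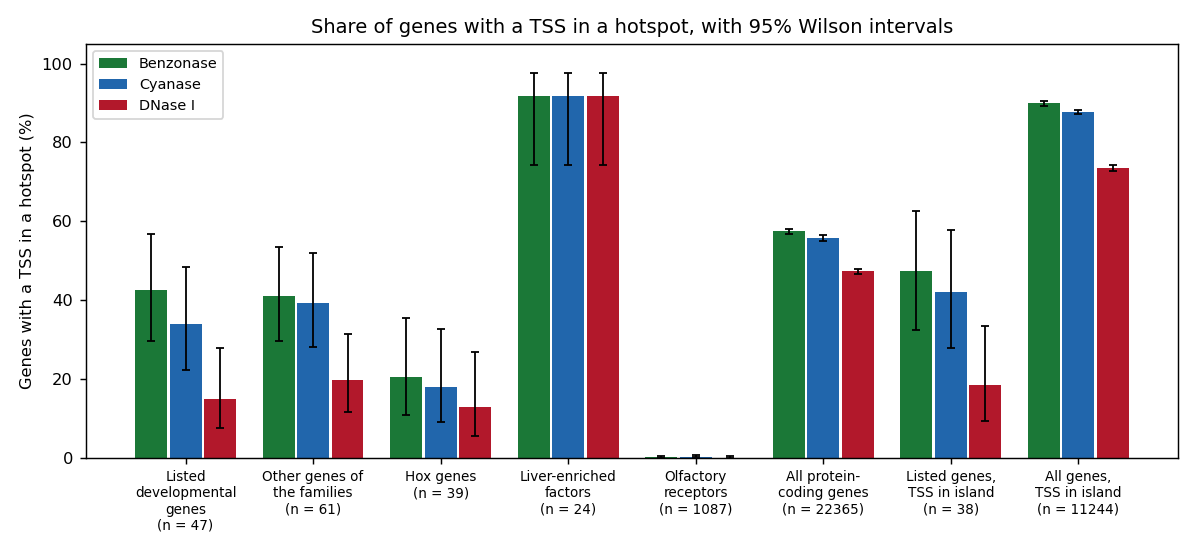
Percentage of genes with a TSS in a hotspot (vertical axis) for each gene list and nuclease; bars are shares and whiskers 95% Wilson intervals. The listed genes reached 42.6, 34.0 and 14.9% for Benzonase, Cyanase and DNase I, and all genes with a TSS in a CpG island reached 89.9, 87.8 and 73.6%.

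The promoters fell into 6 classes by which maps had a hotspot over a TSS. Hotspots of all 3 nucleases were found at 6 genes (12.8%, all genes 46.1%), which were Pax6, Lhx1, Lhx3, Tbx2, Irx3 and Gata2. Benzonase or Cyanase marked 16 genes where DNase I did not (34.0%, all genes 11.8%). These comprised 8 genes with both (Pax3, Pax9, Lhx2, Nkx6-1, Tbx20, Irx2, Irx5 and Neurog2), 6 with Benzonase only (Pax8, Lhx9, Tbx15, Sox2, Sox3 and Gsc) and 2 with Cyanase only (Irx1 and Sox11). DNase I alone marked 1 gene, Gata3 (2.13%, all genes 0.867%). In total 23 genes had a TSS hotspot in at least 1 map (48.9%, all genes 59.1%), so 24 had none.

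Where Benzonase marked a TSS, DNase I seldom did. Of the 20 genes with a Benzonase TSS hotspot, 6 also had one of DNase I (30.0%, 14.5 to 51.9%), against 80.8% of all genes with one of Benzonase. Of the 16 with a Cyanase TSS hotspot, 6 also had one of DNase I (37.5%, 18.5 to 61.4%), against 82.9%. Both upper bounds were below the share over all genes. Benzonase and Cyanase coincided more often, at 14 of the 20 Benzonase genes (70.0%, 48.1 to 85.5%), though still below the 95.6% found over all genes. In turn, 14 of the 16 Cyanase genes had Benzonase (87.5%), against 98.5% of all genes with Cyanase. Conversely, 6 of the 7 DNase I genes also had Benzonase (85.7%) and 6 had Cyanase (85.7%), against 97.9 and 97.5% of all genes. Among unlisted genes of the same families, 12 of 25 with a Benzonase TSS hotspot also had one of DNase I (48.0%, 30.0 to 66.5%). Among Hox genes 5 of 8 did (62.5%, 30.6 to 86.3%). Both intervals overlap that of the listed genes. The upper bound for the unlisted family genes was below the 80.8% of all genes, so a low share was found there too. The Hox interval also held 80.8%, so 8 genes are too few to place the Hox share.

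Among the Pax genes, 4 of 8 had a Benzonase TSS hotspot, 3 one of Cyanase and 1 one of DNase I. Pax6, required for the eye, was the gene with all 3 hotspots. Its 21 protein-coding TSSs span many kilobases, and all 3 hotspots lay over the same internal TSSs, with widths of 1031 bp for Benzonase, 628 bp for Cyanase and 622 bp for DNase I. Pax3, which acts in neural crest and muscle precursors, and Pax9, which acts in thymus and teeth, had Benzonase-Cyanase hotspots without DNase I. Pax8, a thyroid and kidney factor, had a Benzonase hotspot of 453 bp over internal TSSs. Pax1, a factor of the vertebral column, had only a Benzonase hotspot 233 bp downstream of a TSS. Pax2 (kidney), Pax5 (B cells) and Pax7 (muscle satellite cells) had none within 1 kb.

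The LIM-homeodomain genes held 2 of the 7 DNase I promoters. Lhx1, a factor of the head organizer and kidney, had a DNase I hotspot of 1214 bp (chr11:84336008-84337221), wider than its Benzonase (695 bp) and Cyanase (596 bp) hotspots. It was the only gene of the 6 with both where the DNase I hotspot was wider than the Benzonase one. Lhx3, needed for the pituitary, had hotspots of 507, 289 and 506 bp for Benzonase, Cyanase and DNase I over its most upstream TSS. Lhx2, which acts in forebrain and also in hepatic stellate cells, had 2 Benzonase hotspots (638 and 1507 bp) and 2 Cyanase hotspots (634 and 844 bp) over separate TSSs. At the wider site a DNase I hotspot of 594 bp ended 5 bp upstream of the TSS. Lhx9, a gonadal factor, had the narrowest Benzonase TSS hotspot of all listed genes, at 373 bp. Lhx8, a factor of cholinergic neurons, was the 1 gene with DNase I but neither other nuclease within 1 kb, through a hotspot of 251 bp that ended 124 bp upstream of its TSS. Lhx4 and Lhx5 had none within 1 kb.

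Of the 5 Nkx genes, Nkx6-1, a factor of pancreatic beta cells, was the one with a TSS hotspot, of 672 bp for Benzonase and 663 bp for Cyanase. Nkx2-1, the thyroid and lung factor, had Benzonase (335 bp) and Cyanase (380 bp) hotspots that began 888 and 914 bp downstream of the TSS. Nkx2-5, the cardiac factor, had Benzonase (550 bp) and DNase I (740 bp) hotspots that ended 1000 and 917 bp upstream. Both genes thus carried accessible sites near the edge of the 1 kb window rather than at the TSS. Nkx2-2 and Nkx6-2 had none within 1 kb.

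Among the T-box genes, Tbx2, a repressor in heart and limb development, had hotspots of 1561 bp for Benzonase, 1502 bp for Cyanase and 638 bp for DNase I around its single TSS (chr11:85645447-85647007 for Benzonase). The Benzonase and Cyanase hotspots also held the TSS of 2610027K06Rik, and the DNase I hotspot did not. Tbx20, a cardiac factor, had hotspots of 844 bp for Benzonase and 802 bp for Cyanase, and Tbx15, a skeletal factor, had a Benzonase hotspot of 636 bp at the TSS. A Cyanase hotspot of 504 bp began 55 bp downstream of the Tbx15 TSS, so its Benzonase only class rested on a hotspot edge. Tbx1, Tbx4 and Tbx5, known from the pharyngeal arches, hind limb and forelimb, had none within 1 kb.

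The Irx genes pattern neural tissue and heart. All 4 listed ones had a Cyanase TSS hotspot, 3 had one of Benzonase and 1 had one of DNase I. Irx3 had the widest TSS hotspots of Benzonase (2236 bp, chr8:94324210-94326445) and Cyanase (2104 bp) and a DNase I hotspot of 1100 bp. Each of them also held the TSS of the adjoining D230002A01Rik, so the signal of the 2 start sites cannot be told apart. Irx2 and Irx5 had Benzonase hotspots of 859 and 757 bp and Cyanase hotspots of 826 and 844 bp over the TSS, without DNase I within 1 kb. At Irx1 a Cyanase hotspot of 463 bp (chr13:72101118-72101580) reached from 409 bp upstream to 53 bp downstream of the TSS, and the other maps had none within 1 kb. The longest island of all listed genes, 5129 bp, was that of Irx5.

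Six2, Six3 and Six6 had no TSS hotspot in any map. Six6, an eye factor, had Benzonase (350 bp) and DNase I (648 bp) hotspots that ended 956 and 818 bp upstream of the TSS. Six2, which maintains nephron precursors, and Six3, a forebrain factor, had none within 1 kb. The nearest hotspots of any map were 23.1 kb from Six2 and 43.8 kb from Six3.

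None of the 4 listed Sox genes in the annotation had a DNase I hotspot within 1 kb, whereas all 4 had one of Benzonase. Sox2, a factor of pluripotent and neural precursor cells, had a Benzonase hotspot of 893 bp that reached 75 bp past the TSS, and a Cyanase hotspot of 738 bp that ended 19 bp before it. Sox3, its relative on the X chromosome, had a Benzonase hotspot of 1029 bp over the TSS, which also held a TSS of Gm14662, and Cyanase hotspots of 789 and 840 bp on either side. Sox11, a factor of neuronal differentiation, had a Cyanase hotspot of 258 bp over the TSS (chr12:28027489-28027746), the narrowest of Cyanase, and a Benzonase hotspot of 923 bp that began 67 bp downstream. The classes of Sox2, Sox3 and Sox11 therefore rested on where hotspots ended, since both nucleases had hotspots within 1 kb at each. Sox14 had a Benzonase hotspot of 558 bp, 505 bp downstream of a TSS. Sox1, placed by an exact match of its RefSeq promoter to chromosome 8, had a Benzonase hotspot of 600 bp over the TSS (chr8:12395419-12396018), a Cyanase hotspot of 259 bp beside it and no DNase I hotspot within 1 kb.

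Of the 3 Gata genes, 2 had a DNase I TSS hotspot. Gata2, a factor of blood precursors and endothelium, had Benzonase hotspots of 765 and 810 bp and Cyanase hotspots of 519 and 817 bp over its 2 TSSs. Its DNase I hotspot, at the second TSS, had the smallest width in the DNase I map, 251 bp. At Gata3, the T cell factor, a DNase I hotspot of 313 bp (chr2:9800002-9800314) lay over the internal TSS. A Cyanase hotspot of 314 bp ended 23 bp upstream of that TSS, and Benzonase hotspots of 450, 491 and 785 bp lay within 1 kb of a TSS. The Cyanase hotspot thus narrowly missed the internal TSS, while the nearest Benzonase hotspots lay 645 bp upstream and 853 bp downstream of it. With only the most upstream TSS no listed gene had DNase I alone. Gata5, a cardiac and gut factor, had none within 1 kb.

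Of the 5 bHLH genes, Neurog2, which commits precursors to neurons, had a TSS hotspot, of 738 bp for Benzonase and 285 bp for Cyanase. Neurod1, Neurog1, Olig2 and Myod1, factors of neurons, oligodendrocytes and muscle, had none within 1 kb. Gsc, expressed in the embryonic organizer, had a Benzonase hotspot of 573 bp over the TSS, and Otx2, a forebrain factor, had none within 1 kb.

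**Figure D2:**
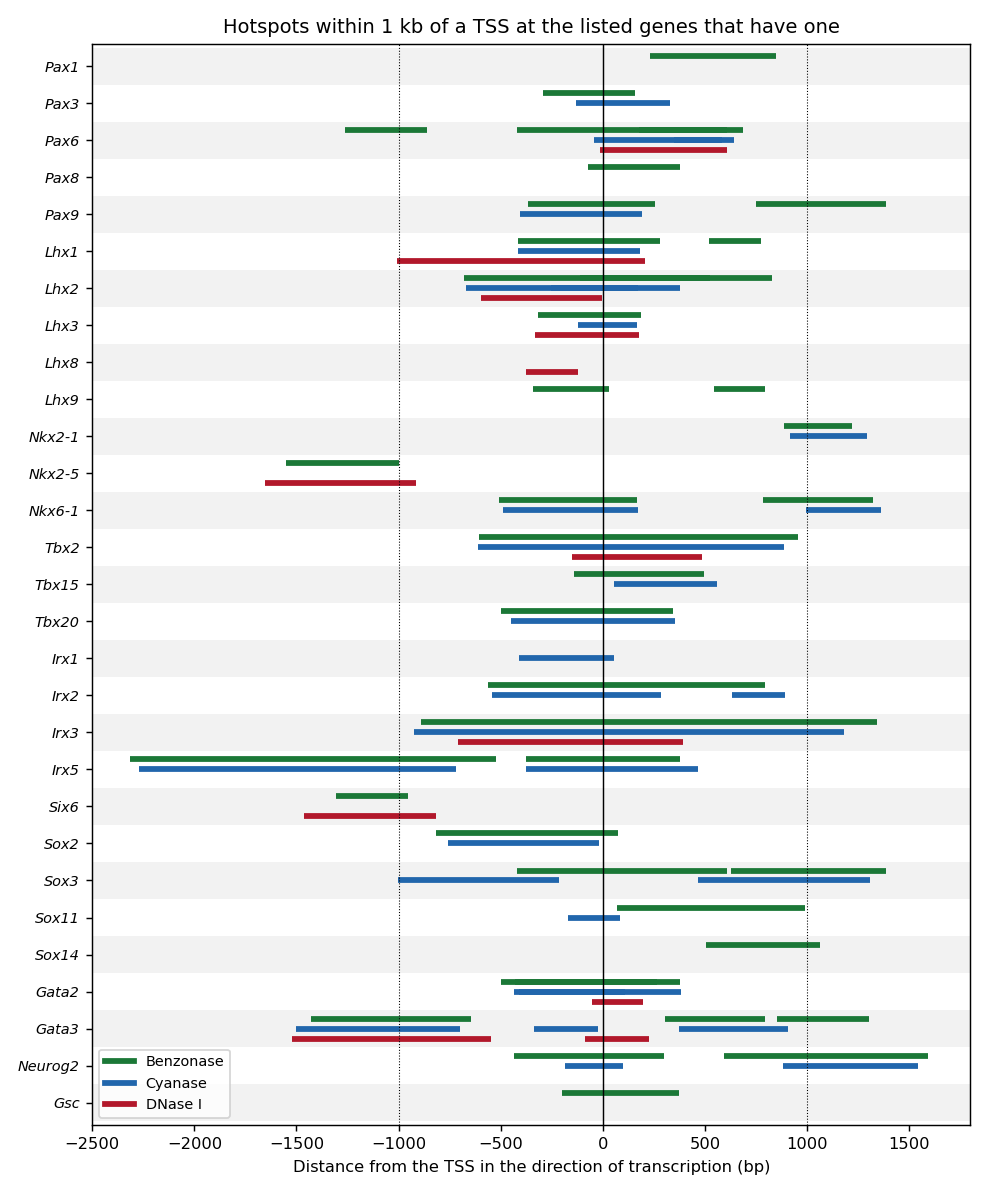
Hotspots within 1 kb of a TSS at the 29 listed genes that have one; the horizontal axis is distance in bp from the TSS each hotspot lies nearest to, bars span hotspots in green (Benzonase), blue (Cyanase) and red (DNase I), and dotted lines mark 1 kb. At 18 of the 47 scored genes (38.3%) Benzonase or Cyanase had a hotspot within 1 kb and DNase I had none, against 11.6% of all genes.

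Counting flanking hotspots changed which genes were marked by 1 nuclease without another. Within 1 kb, 7 genes had Benzonase without Cyanase (14.9%, all genes 2.80%), which were Pax1, Pax8, Lhx9, Nkx2-5, Six6, Sox14 and Gsc. Within the same distance, 18 genes had Benzonase or Cyanase without DNase I (38.3%, 25.8 to 52.6%), against 11.6% of all genes. DNase I alone was found there at 1 gene, Lhx8 (2.13%, all genes 1.24%).

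The 18 genes without any hotspot within 1 kb made up 38.3% of the list, near the 36.6% of all genes. Of these, 13 had a TSS in a CpG island. The nearest hotspot of any map was a median of 9.64 kb from a TSS, with a range from 1.33 kb at Tbx4 to 44.0 kb at Neurog1. At 9 of them (Pax7, Lhx4, Lhx5, Nkx6-2, Tbx1, Six2, Six3, Neurog1 and Myod1) no map had a hotspot within 10 kb. At Nkx2-2 and Neurod1, by contrast, Benzonase hotspots lay 1.91 and 1.98 kb away. No distance or share within 10 kb over all genes is set beside these values, so they only describe the listed genes.

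CpG islands were common at these promoters, and fewer of them carried TSS hotspots than over all genes. A TSS lay in an island at 38 of the 47 genes (80.9%), against 50.3% of all genes, and 46 had an island within 1 kb, the exception being Tbx5. Of the 38, a Benzonase hotspot lay over a TSS of 18 (47.4%), a Cyanase hotspot of 16 (42.1%) and a DNase I hotspot of 7 (18.4%). Over all 11244 genes with a TSS in an island the shares were 89.9, 87.8 and 73.6%. No hotspot of any map lay within 1 kb at 13 of the 38 (34.2%), against 7.10% of all island genes. Other developmental genes with a TSS in an island were also below all island genes. Among the 33 other genes of the same families the shares were 57.6, 54.5 and 30.3%, with no hotspot within 1 kb at 36.4%, and among 19 Hox genes they were 36.8, 31.6 and 21.1%, with none within 1 kb at 57.9%. Median GC content over 1 kb at the most upstream TSS was 60.7% over all 47 listed genes, including those without an island at a TSS. Over all island genes it was 60.9%, and over all genes 54.8%. The median number of CpG in the same 1 kb was 62, 69 and 41.

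The islands of the listed genes were longer at the median. The longest island at a TSS had a median of 1332 bp over 38 genes, against 696 bp over all island genes. In shorter islands a Benzonase TSS hotspot was found at 2 of 5 listed genes from 200 bp to under 500 bp (other genes 86.9%), 5 of 10 from there to under 1000 bp (other genes 92.3%) and 2 of 9 from there to under 2000 bp (22.2%, other genes 89.8%). With islands of 2000 bp or longer, 9 of 14 listed genes had a Benzonase TSS hotspot (64.3%), against 81.6% of the other genes with such islands. For Cyanase the count was 7 of 14, against 77.8% of the other genes, and for DNase I 2 of 14 (14.3%), against 58.3%. For Benzonase the distance to the other genes was thus smallest, among these island lengths, in the longest islands. Of the 9 listed genes without an island at a TSS, Pax8 and Lhx9 had a Benzonase hotspot and none had one of Cyanase or DNase I.

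**Figure D3:**
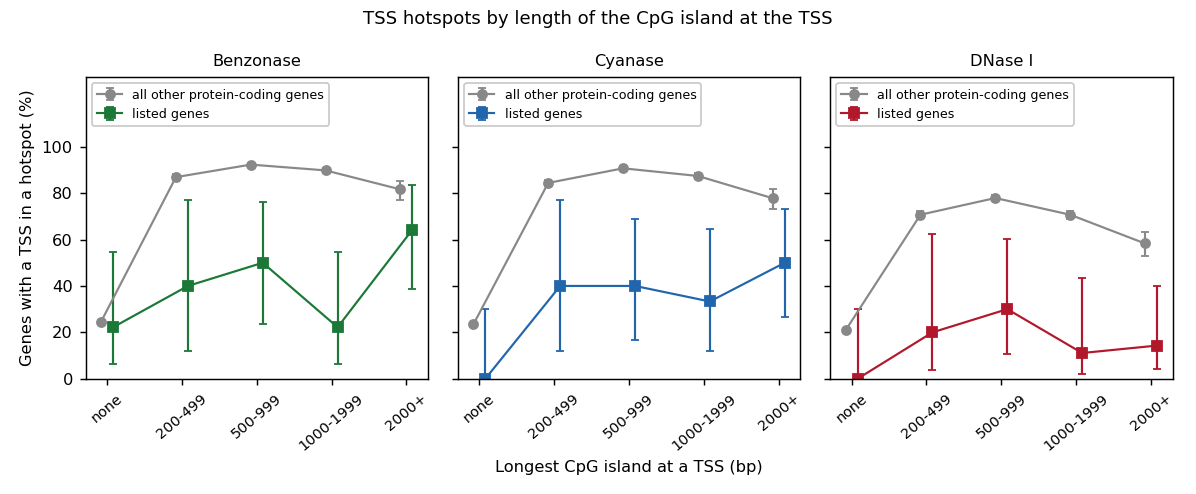
Percentage of genes with a TSS in a hotspot (vertical axis) by the length of the longest CpG island at a TSS in bp (horizontal axis), for the listed genes (squares) and all other protein-coding genes (circles), with 95% Wilson intervals. In islands of 2000 bp or longer the listed genes reached 64.3% for Benzonase and 14.3% for DNase I, and the other genes 81.6 and 58.3%.

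The share of an island under hotspots was below that over all genes. Over 44 islands at TSSs of the listed genes, the median share under hotspots was 8.38% for Benzonase, 5.67% for Cyanase and 0% for DNase I, against 100, 100 and 70.8% over all 11589 such islands. The upper quartile at the listed genes was 58% for Benzonase and 45.2% for Cyanase, and single islands reached 100% with each nuclease. Listed genes with a TSS hotspot of the same nuclease held 23 such islands for Benzonase, 21 for Cyanase and 11 for DNase I. Their median share was 57.6, 41.9 and 7.27%, against 100, 100 and 86.2% over all genes. All islands at TSSs of such a gene were counted, also those at a TSS without a hotspot. In these genes the covered share thus varied, with an upper quartile of 88.6% for Benzonase.

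GC content and CpG number overlapped between the classes compared here, with the lowest medians among them at genes without a TSS hotspot. Gata3, the 1 gene with DNase I alone, was left out and had 53.9% GC and 35 CpG. The median GC content over 1 kb at the most upstream TSS was 64.3% at the 6 genes with all 3 nucleases, 63.1% at the 16 with Benzonase or Cyanase but no DNase I, and 59.0% at the 24 without a TSS hotspot. The ranges overlapped, from 55.9 to 70.5%, from 56.3 to 73.8% and from 43.1 to 71.7%. The median number of CpG in the same 1 kb was 86.0 in the first class, 85.0 in the second and 50 in the third, so genes without a TSS hotspot had fewer CpG at the median. The ranges of the CpG number overlapped as well, from 25 to 94, from 18 to 123 and from 8 to 121. Over all protein-coding genes without a TSS hotspot the medians were 47.1% GC and 12.0 CpG. These values describe the most upstream TSS, while the classes count hotspots over any TSS. Of the 6 genes with all 3 nucleases, 3 (Lhx3, Tbx2 and Irx3) had the DNase I hotspot over the most upstream TSS. The part of base composition in the differences between nucleases was not tested.

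The hotspots over listed TSSs were narrower at the median than those over all genes. Median width was 748 bp for the 22 Benzonase hotspots (373 to 2236 bp), against 1223 bp over all genes, and 19 of the 22 were under the latter. The 18 Cyanase hotspots had a median of 631 bp (258 to 2104 bp, all genes 1137 bp), and 16 were under the median of all genes. The 7 DNase I hotspots had a median of 622 bp (251 to 1214 bp, all genes 840 bp), and 5 were under it. At liver-enriched transcription factors such as Hnf4a and Foxa2 the medians were 2213, 1955 and 916 bp. At Hox genes they were 764, 614 and 553 bp, so similar widths were found there. At other genes of the same families they were 944, 743 and 968 bp. Above the medians of all genes were Irx3, Tbx2 and Lhx2 for Benzonase, Irx3 and Tbx2 for Cyanase and Lhx1 and Irx3 for DNase I.

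**Figure D4:**
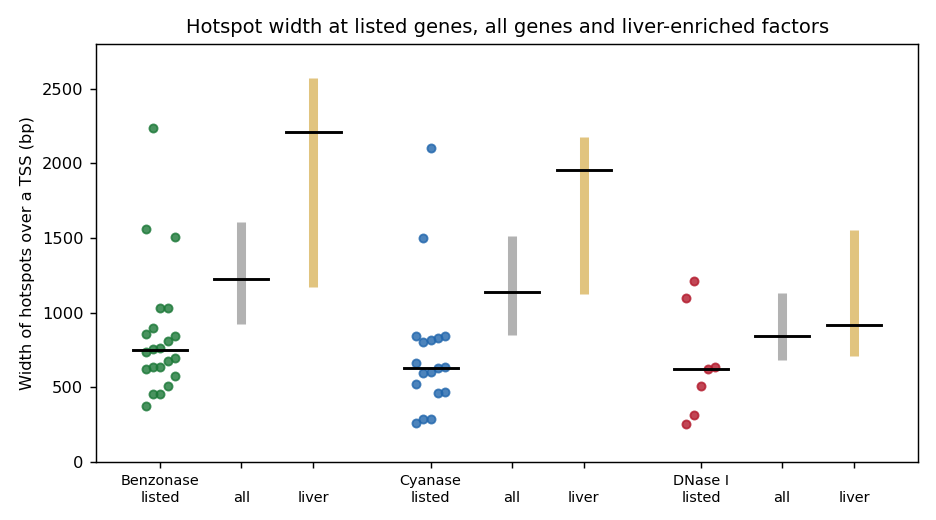
Width in bp (vertical axis) of hotspots over a TSS; points are single hotspots of the listed genes, grey and yellow bars span the lower to upper quartile of all genes and of liver-enriched factors, and black lines are medians. The medians of the listed genes were 748, 631 and 622 bp for Benzonase, Cyanase and DNase I, against 1223, 1137 and 840 bp over all genes.

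In most listed genes Benzonase gave the wider hotspot, as over all genes. In the 14 genes with both, the widest Benzonase TSS hotspot was wider than the widest of Cyanase in 11 (78.6%, all genes 78.9%). In the 6 genes with both, it was wider than that of DNase I in 5 (83.3%, all genes 88.0%). For Cyanase and DNase I the count was 4 of 6 (66.7%), against 82.4% of all genes.

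Benzonase and Cyanase hotspots at listed TSSs were centred slightly upstream. The midpoint lay at a median of -41.2 bp for Benzonase (SD 148, n = 22 hotspots) and -43.8 bp for Cyanase (SD 133, n = 18 hotspots), where negative values are upstream. Over all genes the medians were 68.5 and 49.5 bp, downstream of the TSS. The downstream end lay at a median of 358 bp for Benzonase and 238 bp for Cyanase, against 664 and 609 bp over all genes, while the upstream end lay at -420 and -410 bp, against -498 and -474 bp. The smaller width thus lay mostly on the transcribed side. For DNase I the median midpoint was 69.0 bp (SD 230, n = 7 hotspots), against -51.0 bp over all genes, but it was -77.5 bp when only the most upstream TSS of each gene was used, which left 3 genes. At that TSS, 34.0% of listed genes were under a Benzonase, 27.7% under a Cyanase and 6.38% under a DNase I hotspot, against 54.1, 52.4 and 44.2% of all genes.

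**Figure D5:**
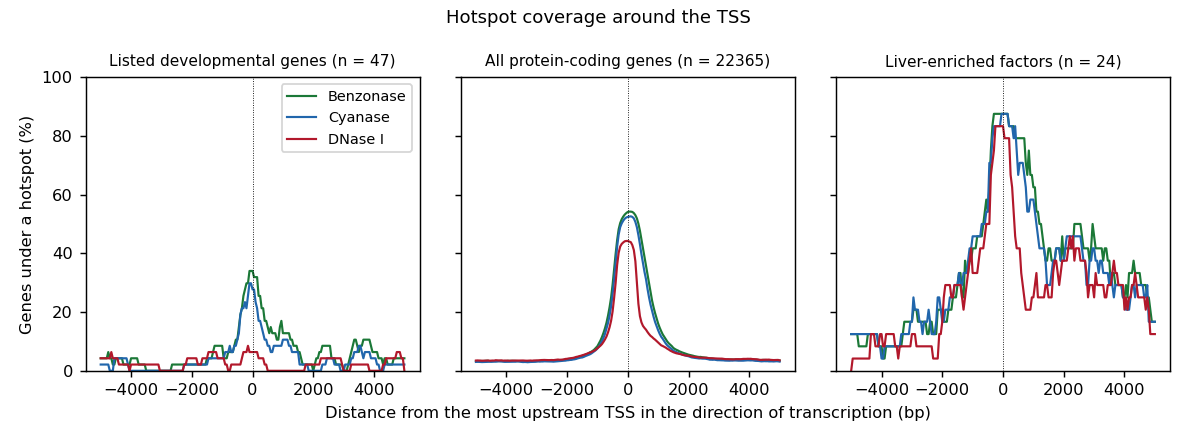
Percentage of genes under a hotspot (vertical axis) by distance in bp from the most upstream TSS (horizontal axis), for the listed genes, all genes and liver-enriched factors, with 1 line per nuclease. At the TSS the listed genes reached 34.0, 27.7 and 6.38% for Benzonase, Cyanase and DNase I, and the liver-enriched factors 87.5, 87.5 and 83.3%.

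Related genes that were not listed gave a similar order. Of 61 other genes of the same families, 25 had a Benzonase TSS hotspot (41.0%), 24 one of Cyanase (39.3%) and 12 one of DNase I (19.7%). Of the 14 other Sox genes, 7 had a DNase I TSS hotspot, such as Sox9 (1937 bp) and Sox5 (1826 bp), and 3 had no TSS hotspot in any map. Of the 2 other Irx genes, Irx4 had none, despite an island of 789 bp, and Irx6 had Benzonase (432 bp) and Cyanase (334 bp) only. Of 39 Hox genes, which pattern the body axis, 8, 7 and 5 did. Olfactory receptor genes, little expressed outside the nose, had 1, 2 and 0 of 1087. Among 24 liver-enriched transcription factors, 22 had a TSS hotspot in each map. The factors that act in the liver were thus marked by all 3 nucleases alike, and the listed genes were not.

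Near relatives could differ sharply. Olig1, the neighbour of Olig2 in the genome, had TSS hotspots of 1955, 1219 and 1261 bp for Benzonase, Cyanase and DNase I, while Olig2 had none. Gata4, active in liver, had hotspots of 2035, 1473 and 1502 bp, while Gata5 had none. Tbx3 had hotspots of 1856, 1748 and 1794 bp, and the linked Tbx5 had none. Wide hotspots of all 3 nucleases were thus found at these unlisted relatives. Among the listed genes Irx3 had them too, of 2236, 2104 and 1100 bp.

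The livers also contain cells other than hepatocytes, and in bulk tissue a site open in few cells and a site weakly open in many cannot be told apart. All 6 hepatocyte markers had a TSS hotspot in every map. Of 5 stellate cell markers, 4 had one of Benzonase, 5 one of Cyanase and 0 one of DNase I. All 5 thus had Benzonase or Cyanase without DNase I at a TSS, against 11.8% of all genes. Within 1 kb this held for 4 of the 5, against 11.6% of all genes. Of 4 Kupffer cell markers, 1 had Benzonase, 1 Cyanase and 4 DNase I. Endothelial markers had 2, 2 and 1 of 5, bile duct markers 1, 0 and 0 of 4, lymphocyte markers 0, 0 and 1 of 4, and blood precursor markers 1, 1 and 0 of 3. Without Lhx2, Gata2, Gata3 and Pax5, which are known from stellate, endothelial or blood cells, the counts of listed genes with a TSS hotspot were 18, 14 and 5. The part of cell composition in the remaining differences was not tested.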

How the data were processed

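Per the paper and the file headers, the authors mapped tags onto mm9 (Eland or Bowtie), combined all tags obtained with a given nuclease, and retained hotspots at an FDR of 0%, adjusted for input and left unmerged. The deposited lists (1 per nuclease) give chromosome, start and end in 3 columns, with no tag number or score, and 0 columns of other samples. The paper also states a cut-off on tag density, set at the mode, and reports fewer hotspots for each nuclease than these lists hold. Groups were taken from the labels.

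Hotspots were placed on mm9 (NCBIM37) with GENCODE M1, and printed coordinates count from 1. A gene was counted where a hotspot covered, or lay within 1 kb of, any TSS of a protein-coding transcript on the autosomes, X or Y. CpG islands (23752) were maximal-scoring segments (17 per CpG, -1 for other bases) of at least 200 bp, with over 50% GC and an observed to expected ratio of CpG above 0.6. Counts carry 95% Wilson intervals and no test. Scoring was tested on simulated data, where all 600 genes were recovered. Software was Python 3.11.15 with numpy 2.4.6, scipy 1.17.1, numba 0.67.0 and matplotlib 3.10.9.

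The genes and the comparison lists were chosen with earlier results of these data known. By rule, positions and widths were given for classes of 5 or fewer genes, the 3 widest and the narrowest TSS hotspots of each nuclease, and genes with hotspots only beside the TSS or none within 1 kb. Other hotspots and neighbouring genes named with values were picked after their values were seen. Sequences were chosen by the widest Benzonase hotspot, the longest island in each such class and the absence of an island. Of 25 liver-enriched factors, 24 were found, and Cebpd was not. Alternatives were other transcripts, windows, hotspot widths and island limits.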

Additional observations from a re-analysis of the deposited data

How the results depend on the processing

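Of 99 values recomputed under other settings, 91 stayed within 1.5 times the value given or within 1 SD of it. Those that did not were all values of DNase I, under 3 of the settings. Using only the most upstream TSS, its TSS count fell from 7 to 3 genes (Lhx3, Tbx2 and Irx3), its count within 1 kb from 11 to 6, and its median midpoint turned from 69.0 to -77.5 bp. Without hotspots under the lower width quartile, and with the widest hotspots of each map in equal number, the TSS count of DNase I was 4. Under each of these 3 settings the count of genes with DNase I alone was 0. The corresponding Benzonase and Cyanase TSS counts were 16 and 13, 17 and 11, and 20 and 16. The cause was not tested. After the data were seen, 3 settings were added. Leaving out hotspots that hold a TSS of another gene gave 17, 14 and 6 genes for Benzonase, Cyanase and DNase I, adding Sox1 gave 21, 16 and 7, and leaving out Lhx2, Gata2, Gata3 and Pax5 gave 18, 14 and 5.

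No paired analysis was possible because each map pools its samples, and for the same reason leaving out a replicate was not possible. Depth per hotspot is unknown, so a promoter below the calling limit cannot be told from a closed one.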
